A study of Mus musculus with 5 samples.

Results

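The 9 genes described here encode the subunits of the AMPA receptors (Gria1 to Gria4) and the kainate receptors (Grik1 to Grik5). They were chosen by gene symbol, as 9 of the 19232 symbols that occur in at least 1 of 4 lists of chromatin regions. A gene with no line in a list was counted as having no listed region. All 9 had a region in at least 1 list. The libraries were made from striatal nuclei of 8-week-old C57BL/6 mice with no other genotype or treatment named in the labels, sorted on NeuN, a nuclear protein of most neurons. Sequenced chromatin immunoprecipitations used antibodies to H3K4me3, H3K27me3, H3K27ac and RNA polymerase II (Pol II), with 1 library per antibody and 1 input library. The number of mice behind a library, whether mice were pooled and their sex are not stated in the labels.

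AMPA receptors are tetramers that open within milliseconds of binding glutamate and carry most of the fast excitatory current that medium spiny neurons, the main projection neurons of the striatum, receive from cortex and thalamus. Kainate receptors are related tetramers, built from Grik1 to Grik3 subunits that can form channels alone and from Grik4 and Grik5 subunits that need a partner from the first set. They act on both sides of the synapse. H3K4me3 is a histone mark of promoters, H3K27ac of active promoters and enhancers, and H3K27me3 is the mark laid down by Polycomb repressive complex 2. Pol II transcribes the genes.

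Several facts of the data bear on everything that follows. Each list names regions near annotated transcription start sites with the score that the authors gave to the immunoprecipitation over input; it has no stated scale and was used only to rank genes within 1 list. No listed score lies below 2.0. There are no replicates, so no difference between genes or lists could be tested and the order of neighbouring values carries no error. Read depth is unknown from these files. Of 10 marker genes of medium spiny neurons, all 10 had H3K27ac and Pol II, against 0 of 5 markers of other striatal neurons and 1 of 16 markers of glia, microglia and endothelium, the oligodendrocyte gene Mbp. NeuN does not separate neuron types, so a region seen in all nuclei at a modest level and a region seen strongly in few nuclei cannot be told apart. For the same reason, 2 marks listed at the same gene may come from the same or from different nuclei.

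The promoters below are shown because these 4 genes mark the ends of the range described later. Gria2 had the highest H3K4me3 and Pol II scores of the 9 genes, Grik5 the highest H3K27ac score, Grik3 lay in the widest H3K27me3 region, and Grik4 had the lowest H3K27ac and Pol II scores. The H3K4me3 score of Grik4 was also the lowest when the higher of the 2 scores listed for the Grik5 region is used. Each sequence is the 250 bases before the RefSeq start of the gene in build GRCm38.p6, 5′ to 3′ on the strand of the gene. Capitals mark every match to the motifs GGGCGG (the GC box bound by Sp1), TGACGTCA (the cyclic AMP response element), TATAAA, the palindromic NRF1 site, and TTCAGCACC and GGACAG (parts of the RE1 site bound by REST), on either strand. The region lists use build mm9, so these windows were not placed on the regions.
Gria2, chr3:80802836-80803085, minus strand: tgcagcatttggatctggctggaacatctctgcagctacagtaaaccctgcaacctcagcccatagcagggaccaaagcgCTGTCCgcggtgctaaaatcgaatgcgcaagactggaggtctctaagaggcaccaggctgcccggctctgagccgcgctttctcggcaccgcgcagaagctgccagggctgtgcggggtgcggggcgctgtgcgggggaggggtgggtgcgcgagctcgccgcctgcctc
Grik5, chr7:25072370-25072619, minus strand: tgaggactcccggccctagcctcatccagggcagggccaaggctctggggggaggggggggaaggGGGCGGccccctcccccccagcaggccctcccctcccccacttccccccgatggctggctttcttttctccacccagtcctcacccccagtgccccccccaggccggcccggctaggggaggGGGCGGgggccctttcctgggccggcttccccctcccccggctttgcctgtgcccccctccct
Grik3, chr4:125490446-125490695, plus strand: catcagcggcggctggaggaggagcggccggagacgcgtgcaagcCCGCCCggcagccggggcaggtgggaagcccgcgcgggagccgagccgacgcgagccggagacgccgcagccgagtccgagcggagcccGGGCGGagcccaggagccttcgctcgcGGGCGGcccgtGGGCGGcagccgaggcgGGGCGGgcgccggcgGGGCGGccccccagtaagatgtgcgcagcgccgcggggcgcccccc
Grik4, chr9:42944372-42944621, minus strand: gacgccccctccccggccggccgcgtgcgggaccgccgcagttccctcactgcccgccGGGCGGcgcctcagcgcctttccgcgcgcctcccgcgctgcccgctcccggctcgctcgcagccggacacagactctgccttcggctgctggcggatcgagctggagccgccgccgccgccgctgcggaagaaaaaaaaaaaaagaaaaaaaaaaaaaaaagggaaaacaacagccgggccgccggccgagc

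RefSeq promoters were matched for 6 of the 9 genes: Gria2, Gria4, Grik2, Grik3, Grik4 and Grik5. CpG dinucleotides were frequent in 5 of them, with an observed over expected ratio of 0.73 at Gria2, 0.82 at Grik2, 0.83 at Gria4, 1.01 at Grik3 and 1.21 at Grik4. Grik5 stood apart with a ratio of 0.23 at a GC content of 75.2%. The median was 0.70 over 14543 promoters of coding genes with H3K4me3 and 0.18 over 5945 promoters of coding genes without it. The Grik5 ratio therefore lies nearer the median of the second set. A ratio above 0.6 was found at 62.3% of the first set and 6.31% of the second, so lower ratios also occur with H3K4me3. The H3K27ac region of Grik5, with the highest score of the 9 genes, is also listed for Zfp574 on the opposite strand. That score can thus not be set against this window alone. GGGCGG occurred 6 times at Grik3, 2 times at Grik5 and 1 time at Grik4, and 32.7% of all 32851 promoters of this length held it at least once. GGACAG, which 18.7% of promoters hold, was found at Gria2. No other motif of the set was found in the 6 windows, and TTCAGCACC was rare in all promoters, at 0.301%.

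All 9 genes had an H3K4me3 region, against 68.4% of 21031 protein-coding genes. H3K27ac was listed at 8 of the 9 (51.5% of coding genes) and Pol II at the same 8 (41.7%), Grik1 being the exception, so that 8 of 9 had all 3 of H3K4me3, H3K27ac and Pol II (40.7%). H3K27me3 was listed at 3 of the 9, Grik1, Grik3 and Grik4, against 42.5% of coding genes. The AMPA genes were alike: each of the 4 had the 3 active marks (H3K4me3, H3K27ac and Pol II) but not H3K27me3, a set found at 34.8% of coding genes. The kainate genes fell into 3 sets. Grik2 and Grik5 had the marks of the AMPA genes, Grik3 and Grik4 had all 4 (5.93% of coding genes), and Grik1 had H3K4me3 and H3K27me3 alone (13.4%). All 4 were also listed at 5 of the 10 marker genes of medium spiny neurons, so this set is not particular to Grik3 and Grik4. Whether the AMPA and kainate classes differ was not tested, with 1 library per antibody and 4 and 5 genes.

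**Figure D1:**
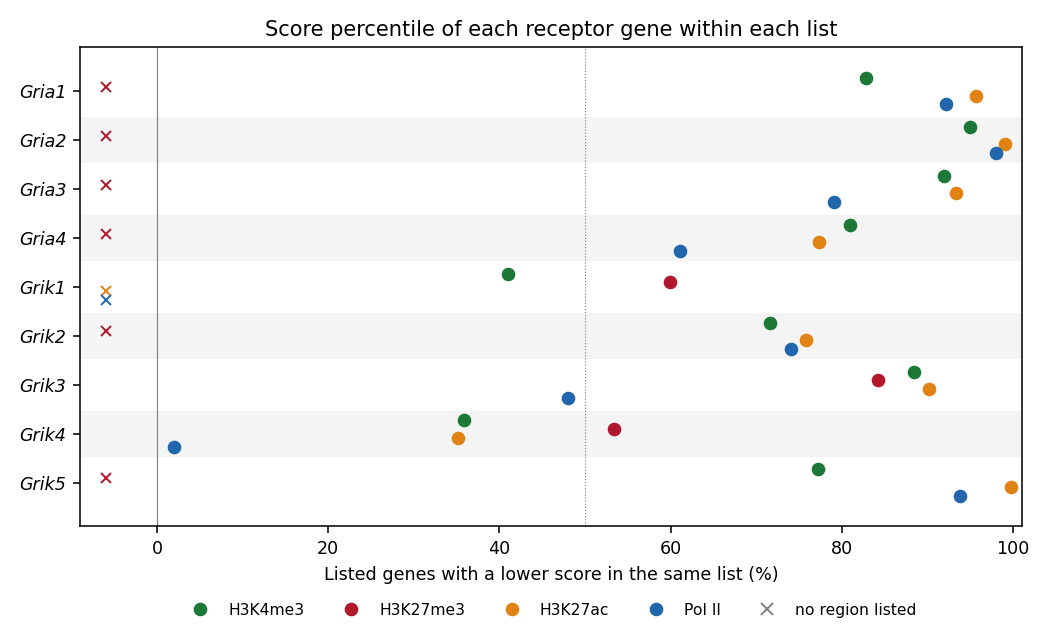
Each row is a receptor gene and each point its score percentile in 1 list, the percentage of listed coding genes with a lower score; a cross at the left means that no region was listed. The AMPA genes lie to the right of 60 in every list that names them, whereas Grik4 reaches 53.4 at most.

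Among the AMPA subunits, Gria2 encodes GluA2, whose edited form keeps the channel from passing calcium. Its H3K4me3 region (mm9 chromosome 3, 80593601 to 80609400) scored 11.62, higher than 95.0% of listed genes. Its H3K27ac region scored 11.35, which placed it 102nd of 10822 genes, and its Pol II region scored 5.26, 176th of 8773 genes. Gria2 was thus near the top of all 3 lists, and its H3K27ac and Pol II regions, 12.3 and 11.9 kb wide, were also wider than those of 98.3% and 97.8% of listed genes.

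Gria1 encodes GluA1, the subunit whose insertion into synapses is a textbook step of long-term potentiation. It had the widest H3K4me3 region of the 4 AMPA genes, 19.0 kb (chromosome 11, 56822301 to 56841300), wider than that of 95.8% of listed genes, with a score of 9.90. Its H3K27ac score of 8.94 exceeded 95.7% of listed genes and its Pol II score of 4.22 exceeded 92.1%. Gria1 therefore stood higher in the H3K27ac and Pol II lists than in the H3K4me3 list, where its percentile was 82.8.

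Gria3, the X-linked AMPA gene encoding GluA3, showed the reverse order for Pol II. Its H3K4me3 region (chromosome X, 38751501 to 38762100) scored 11.07 and ranked above 91.9% of listed genes, second to Gria2 among the 9 genes. The percentile was 93.3 for H3K27ac, with a score of 8.15, and 79.1 for Pol II, with a score of 3.54.

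Gria4 encodes GluA4, known from fast-spiking interneurons and from early development. It was the lowest of the AMPA genes in all 3 lists, though still above the median of each. Its regions were a 7.9 kb H3K4me3 region (chromosome 9, 4790801 to 4798700) scoring 9.73, a 6.0 kb H3K27ac region scoring 5.76 and a 4.9 kb Pol II region scoring 3.03. The percentiles were 81.0, 77.3 and 61.1, and the Pol II width was that of the median listed gene, 4.9 kb. Over the 4 AMPA genes the median percentile was 87.4 for H3K4me3, 94.5 for H3K27ac and 85.6 for Pol II.

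Of the kainate genes, Grik2 encodes GluK2, a channel-forming subunit. It had wide regions with moderate scores. Its 14.3 kb H3K27ac region (chromosome 10, 49497201 to 49511500) was wider than 99.1% and its 10.7 kb Pol II region wider than 97.1% of those of listed genes, while the score percentiles were 75.8 and 74.1. H3K4me3 covered 15.6 kb with a score of 8.91.

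Grik5 encodes GluK5, a subunit that binds glutamate with high affinity and works only with a partner. Its H3K27ac region (chromosome 7, 25851401 to 25865300) scored 13.13, 33rd of 10822 genes, and its Pol II region scored 4.38, above 93.8% of listed genes. The H3K4me3 region covered 45.3 kb and was the 25th widest of 13142. All of these regions were also listed for Zfp574, a zinc finger gene on the opposite strand, so the values cannot be assigned to 1 of the pair. The same H3K4me3 bounds were listed with 2 scores, 9.37 and 3.19, as happened for 12 regions of that list. The higher score gives a percentile of 77.2 and the lower 9.0.

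**Figure D2:**
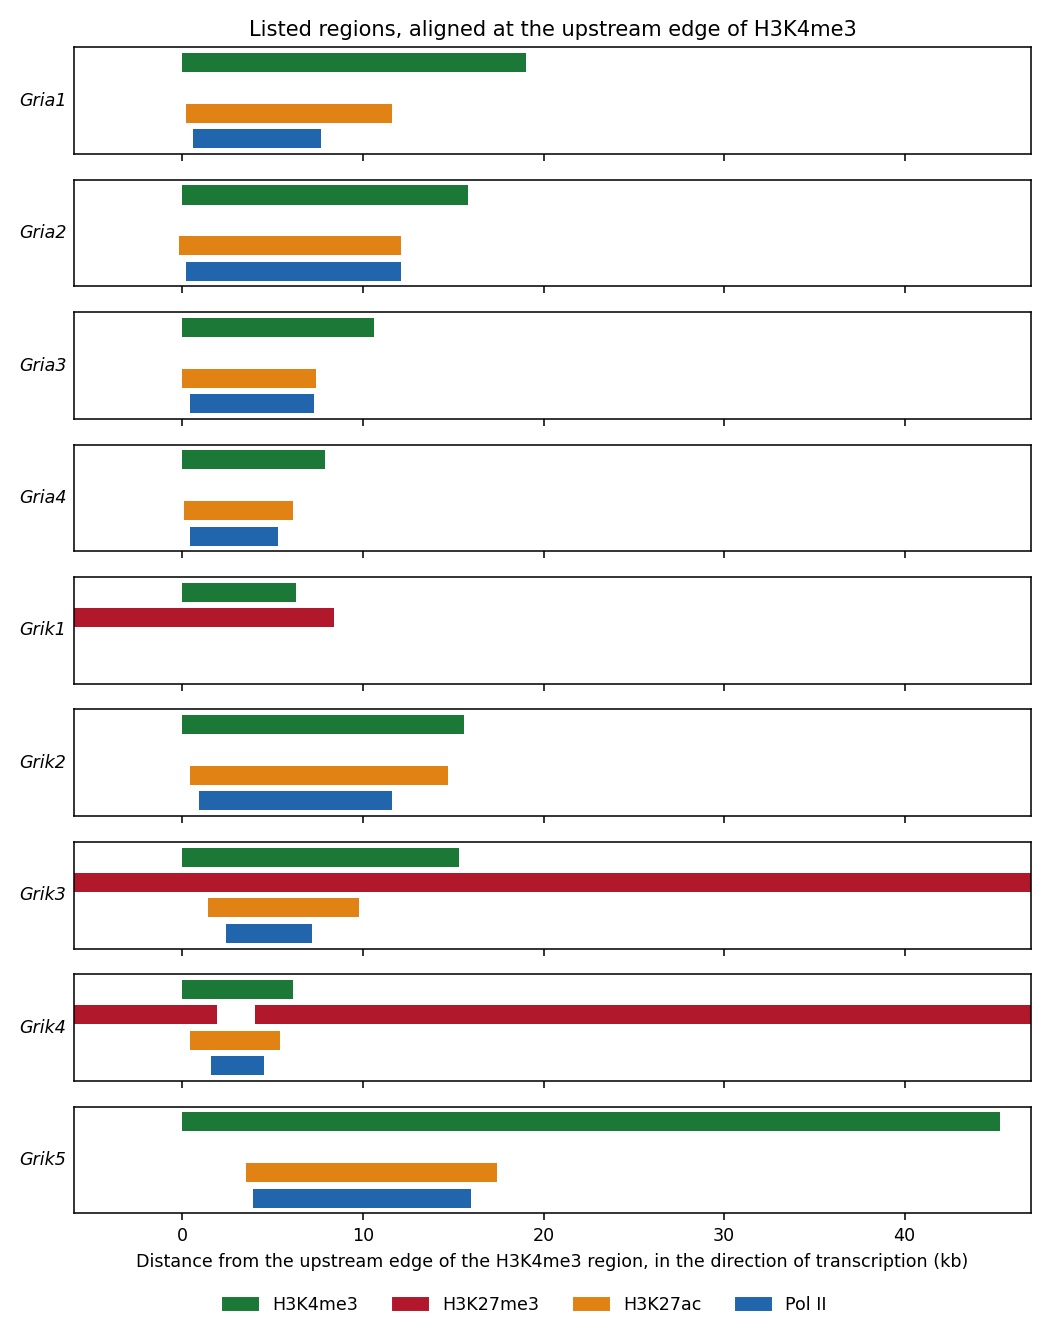
Bars show the listed regions of each gene, placed by distance in kb from the upstream edge of its H3K4me3 region and drawn in the direction of transcription; H3K27me3 bars that reach the panel edge continue beyond it. In the 4 AMPA genes the 3 active marks begin within 0.6 kb of each other and end at different distances downstream.

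The regions of the 8 genes with H3K4me3, H3K27ac and Pol II were nested. The Pol II region lay wholly inside the H3K4me3 and the H3K27ac region in all 8, and the H3K27ac region lay wholly inside the H3K4me3 region in 7, the exception being Gria2, where H3K27ac passed the H3K4me3 edge by 200 bp. Over 8190 coding genes with a single region of each kind, median overhangs were also positive at both edges. Upstream and downstream, they were 0.5 and 1.3 kb for H3K4me3 beyond Pol II and 0.2 and 0.4 kb for H3K27ac beyond Pol II. For H3K4me3 beyond H3K27ac they were 0.3 and 0.9 kb. How many of those genes had nested regions was not counted, so nesting is not shown to be particular to the 8. Edges lie on a grid of 100 bp. In the AMPA genes the upstream edges of H3K4me3 and Pol II were 0.2 kb (Gria2), 0.4 kb (Gria3 and Gria4) and 0.6 kb (Gria1) apart. At the downstream edge H3K4me3 passed Pol II by 2.6 kb at Gria4, 3.3 kb at Gria3, 3.7 kb at Gria2 and 11.3 kb at Gria1. H3K4me3 thus reached further downstream than the Pol II region at each AMPA gene.

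The same held for 3 of the 4 kainate genes with Pol II. Upstream and downstream overhangs of H3K4me3 over Pol II were 0.9 and 4.0 kb at Grik2 and 2.4 and 8.1 kb at Grik3. At Grik5 they were 3.9 and 29.3 kb. The H3K4me3 region of Grik3 is also listed for Ftl2 on the same strand, and the Grik5 regions are shared with a gene on the other strand. At Grik4 both overhangs were 1.6 kb. A larger downstream overhang was therefore seen at 7 of 8 genes, against 76.9% of 8190 coding genes with 1 region of each of the 3 kinds, a share near that of the 8. H3K4me3 passed H3K27ac further downstream than upstream at 8 of 8 (73.0% of the 8190) and H3K27ac passed Pol II in this way at 5 of 8 (69.0%). As for the lengths, the median downstream overhang of all 8190 genes was 1.3 kb, against 3.85 kb over the 8 receptor genes. Downstream, Gria1 exceeded 97.5% of genes, Grik3 95.0% and Grik5 99.9%, and the remaining receptor genes ranged from 57.4% at Grik4 to 85.3% at Grik2. Upstream, the values ran from 15.1% at Gria2 to 94.5% at Grik5, with Grik3 at 91.2% and Grik4 at 86.0%.

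**Figure D3:**
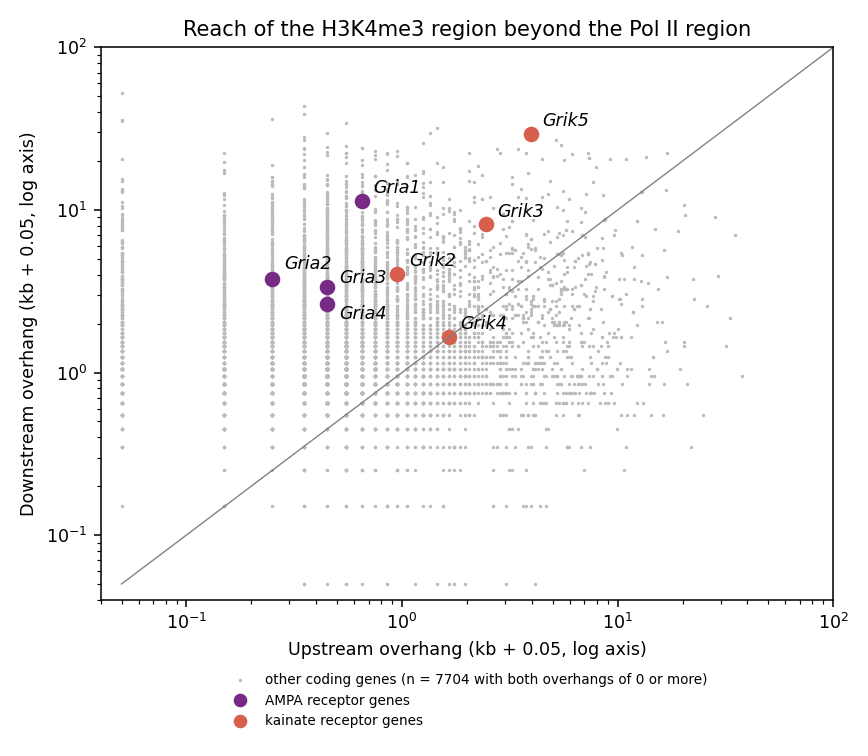
Each point is a gene, with the distance by which its H3K4me3 region passes its Pol II region upstream (x axis) and downstream (y axis), in kb with 0.05 added, on log axes; the line marks equal distances, and grey points are 7704 other coding genes. Of the 8 receptor genes shown, all lie above the line except Grik4, which lies on it.

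H3K27me3 took a different form at each of the 3 kainate genes that had it. Grik1 encodes GluK1, a channel-forming kainate subunit. Its 6.3 kb H3K4me3 region (chromosome 16, 88287001 to 88293300) lay wholly inside a 20.5 kb H3K27me3 region (88284901 to 88305400), and neither H3K27ac nor Pol II was listed. The H3K4me3 score of 6.71 was above 41.0% of listed genes and the H3K27me3 score of 4.10 above 59.9%. Of the 2823 coding genes with these marks alone, 72.4% had the H3K4me3 region inside an H3K27me3 region, so the arrangement at Grik1 was the common one.

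Grik3 encodes GluK3, a channel-forming subunit of low glutamate affinity. It was listed for an H3K27me3 region of 915.4 kb (chromosome 4, 124806401 to 125721800), the 2nd widest of 8219, with a score of 6.75, above 84.2% of listed genes. Zc3h12a, Csf3r, Mrps15, Ftl2 and 2610028E06Rik were listed for the same region. The H3K4me3 region of Grik3 (15.3 kb, score 10.52, percentile 88.4), its H3K27ac region (8.4 kb, score 7.42, percentile 90.2) and its Pol II region (4.8 kb, score 2.76, percentile 48.0) all lay wholly inside it. Among the 1248 coding genes with all 4 marks, H3K4me3 lay wholly inside H3K27me3 at 4.01%, H3K27ac at 4.89% and Pol II at 6.17%.

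Inside the 915.4 kb region, no other H3K27ac or Pol II region was listed than that of Grik3. The H3K4me3 regions there were that of Grik3, which was listed for Ftl2 as well, and 1 of Zc3h12a (5.2 kb, score 3.87), of which 21.2% lay inside at the edge. The Grik3 regions began 356.7 kb from that edge for H3K4me3 and 359.1 kb for Pol II. Grik3 was thus high in the H3K4me3 and H3K27ac lists and just below the middle of the Pol II list.

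Grik4 encodes GluK4, the other subunit of the high-affinity class. It had 2 H3K27me3 regions, of 63.2 kb (chromosome 9, 42688001 to 42751200, score 3.76) and 16.6 kb (42753301 to 42769900, score 3.66), with a gap of 2.1 kb between them. The H3K4me3, H3K27ac and Pol II regions each covered the whole gap. Beyond it they overlapped the flanking H3K27me3 regions by 2.1 and 1.9 kb for H3K4me3, 1.4 and 1.5 kb for H3K27ac, and 0.5 and 0.3 kb for Pol II. If both regions were listed by the window of 3 kb around the start that the name of the list states, the start lies between 42750301 and 42754200, in or near the gap.

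A gap spanned in this way was uncommon among all genes with close H3K27me3 regions, whether or not the other marks were listed. How common it is among genes with all 4 marks was not counted. Of 629 coding genes with a gap of up to 6 kb between H3K27me3 regions, 24 (3.82%) had it spanned by listed H3K4me3, H3K27ac and Pol II regions. The Grik4 values were low in all 3 of these lists: the H3K4me3 score was 6.32 (percentile 35.9), the H3K27ac score 3.48 (35.2) and the Pol II score 2.03 (2.0), next to the lowest listed score of 2.0. Its Pol II region was 2.9 kb wide, and 0.6% of listed genes had a narrower one. The Pol II call at Grik4 therefore rests on a region at the edge of the list.

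**Figure D4:**
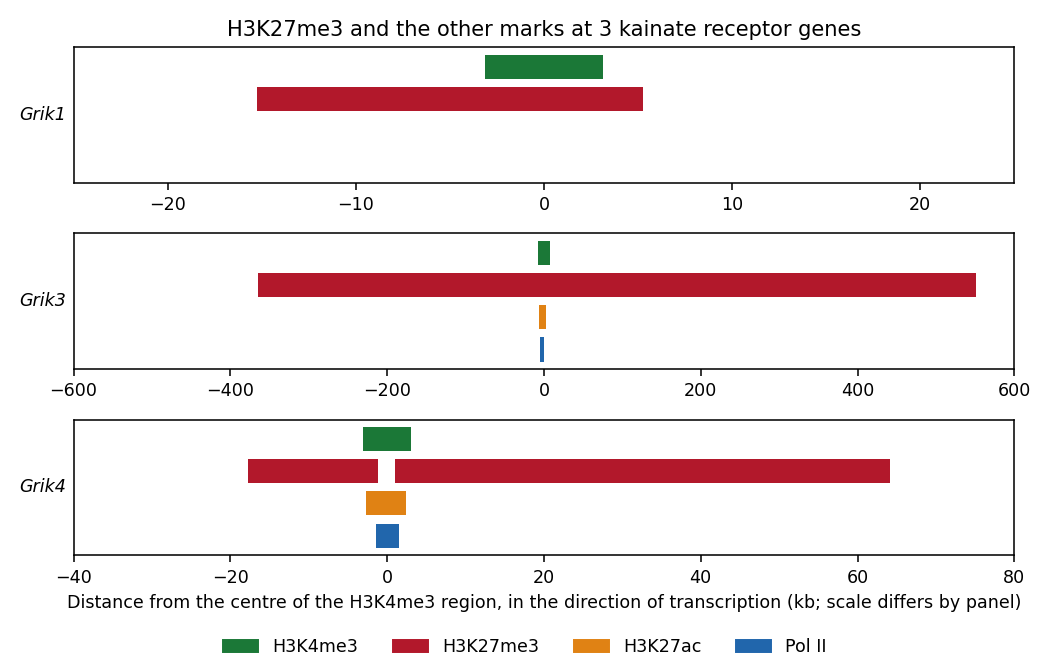
Bars show the 4 kinds of region at Grik1, Grik3 and Grik4 by distance in kb from the centre of the H3K4me3 region, in the direction of transcription, with a different scale in each panel. H3K4me3 sits inside H3K27me3 at Grik1 and Grik3, while at Grik4 the 2.1 kb gap in H3K27me3 lies under the H3K4me3, H3K27ac and Pol II bars.

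The orders of the genes by score differed between lists. From the highest, the H3K4me3 order was Gria2, Gria3, Grik3, Gria1, Gria4, Grik5, Grik2, Grik1 and Grik4. By H3K27ac it was Grik5, Gria2, Gria1, Gria3, Grik3, Gria4, Grik2 and Grik4, and by Pol II it was Gria2, Grik5, Gria1, Gria3, Grik2, Gria4, Grik3 and Grik4. Gria2 was first or second in each, and Grik4 was last by H3K27ac and Pol II. By H3K4me3 the order takes the higher score of Grik5, 9.37; with the other listed score, 3.19, Grik5 would be last, below Grik4 at 6.32. Grik3 had a higher place by H3K4me3 than by Pol II, where it stood above Grik4 alone, and Grik5 had a higher place by H3K27ac than by H3K4me3 with either score. Without replicates, neighbours in these orders cannot be said to differ.

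Likeness between genes was measured as the sum, over the 4 lists, of the absolute differences in score percentile, among genes with the same set of marks. The nearest genes to Gria2 were Pcbp1 (1.2 points), Atp2a2 (1.6) and Tnrc18 (1.7), and those to Gria1 were Ypel2 (1.7), Mef2d (2.0) and Dtnb (2.6). Gria3 was closest to Rora (2.0), Fem1b (2.1) and Cadm3 (2.3), Gria4 to Cycs (4.8), Ptp4a1 (6.4) and Arhgdia (6.4), and Grik2 to Ino80 (1.2), Slc25a5 (2.3) and Sec61g (3.8). Over all 7317 genes with these marks, the median distance to the nearest gene was 2.4 points, and of these 5 genes Gria4 alone was above it. Grik5 was at 0.0 from Zfp574, with which it shares its regions, followed by Csmd3 (3.1) and Sowaha (3.7), all with the higher of its H3K4me3 scores.

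The nearest genes to Grik1, among 2822, were Il7 (2.7), Tead4 (4.7) and Trmt44 (5.2), against a median nearest distance of 0.6 for genes with these 2 marks alone. Distances are larger where more lists count and fewer genes share the marks, and the median for the 1248 genes with all 4 marks was 12.6. For Grik3 the nearest were Slc35d3 (26.9), Deaf1 (30.1) and Sbf2 (30.5), and for Grik4 Efhd2 (19.2), Mblac1 (21.4) and Thoc3 (23.1). Within the family, Gria1 and Gria2 were 21.4 points apart. Gria1 and Grik5, whose regions are shared with Zfp574, were 11.3 apart with the higher H3K4me3 score of Grik5 and 79.4 with the lower, so the closest pair depends on that choice.

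The partners of these receptors were read the same way from a list of 36 genes for auxiliary subunits, trafficking, biogenesis, synaptic organisers and RNA editing. H3K4me3 was listed at 35 of them, H3K27ac at 34, Pol II at 30 and H3K27me3 at 9, against the 68.4%, 51.5%, 41.7% and 42.5% of coding genes given above. The median percentiles were 69.7 for H3K4me3, 77.2 for H3K27ac, 61.6 for Pol II and 17.9 for H3K27me3. Where H3K27me3 was listed, it was thus mostly low in its list.

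Some transmembrane AMPA receptor regulatory proteins (TARPs) carry AMPA receptors to the synapse and slow their closing. Of the 6 TARP genes, 5 had H3K4me3, H3K27ac and Pol II without H3K27me3 (34.8% of coding genes). Cacng2, the gene of stargazin, scored 10.15 for H3K27ac (percentile 97.9), Cacng3 8.36 (94.2), Cacng4 7.68 (91.5), Cacng8 7.33 (89.7) and Cacng7 3.44 (34.2). Cacng5 had H3K4me3 (2.88) and a 4.9 kb H3K27me3 region alone. The other AMPA auxiliary genes reached higher: Shisa9, which encodes CKAMP44, scored 13.57 for H3K27ac (99.8), Shisa7 9.98 (97.6), Gsg1l 9.77 (97.3) and Cnih2, a cornichon gene, 7.98 (92.6). Shisa6 and Cnih3 were low, with H3K27ac scores of 2.56 and 3.04, and both also had H3K27me3.

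Neto1, an auxiliary subunit of kainate receptors, scored 12.53 for H3K4me3 (98.0), 12.90 for H3K27ac (99.6) and 5.30 for Pol II (98.1), above every kainate receptor gene in the H3K4me3 and Pol II lists. For its relative Neto2 none of the 4 lists had a line. Of 10 scaffold and trafficking genes all had H3K27ac (51.5% of coding genes) and 7 had Pol II (41.7%). Nsg1 had the highest H3K27ac score of these genes, 9.54 (97.0). Dlg4, the gene of the scaffold PSD-95, scored 8.02 for H3K27ac over 18.8 kb, while Pick1 (3.75), Dlg1 (3.84) and Grip2 (2.64) had H3K27ac and no Pol II. All 5 synaptic organiser genes carried the 3 active marks (40.7% of coding genes), led by Lrrtm1 with an H3K27ac score of 8.75 (95.4). Nptx1 and Nptx2 of this set also had H3K27me3, with scores of 2.51 and 2.31.

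Adarb1 encodes ADAR2, the enzyme that edits the GluA2 transcript. It had H3K4me3 (11.59, percentile 94.9), H3K27ac (5.70, 76.6) and Pol II (3.40, 74.8) and no H3K27me3. Adarb2, a brain relative without known editing activity, had all 4 marks, with a 45.4 kb H3K27me3 region scoring 3.94 and H3K27ac at 2.35, near the lowest listed score. The 4 biogenesis genes Abhd6, Porcn, Cpt1c and Frrs1l had H3K27ac scores between 3.90 and 5.27, nearer the median of listed genes, 4.06.

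The NMDA receptor genes, which encode another class of ionotropic glutamate receptor, were set beside them. All 7 NMDA receptor genes carried H3K4me3 (68.4% of coding genes), with H3K27me3 at 5 (42.5%), H3K27ac at 4 (51.5%) and Pol II at 3 (41.7%). The H3K27ac and Pol II counts lie near the shares of all coding genes. Among the 5 with H3K27me3, Grin1 also had all 3 active marks. Its H3K27me3 region of 3.8 kb scored 2.25 (percentile 9.1), near the lowest listed score. Grin2a and Grin2b matched the AMPA genes in their marks, and Grin2c, Grin2d and Grin3b had H3K4me3 and H3K27me3 alone, as Grik1 did. The H3K27me3 scores of Grin2c (9.79) and Grin2d (8.04) were above the 4.10 of Grik1 in the same list. These counts are descriptions, and no difference between the receptor classes was tested.

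**Figure D5:**
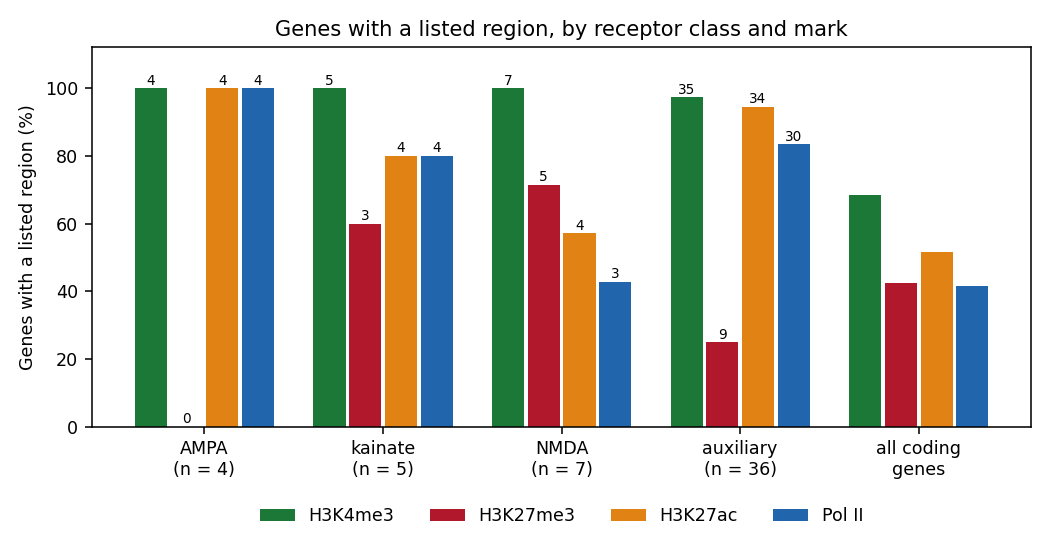
Bars give the percentage of genes in each receptor class with a listed region of each kind, with the number of genes above the bar; the last group is all 21031 protein-coding genes. H3K27me3 is at 0 of 4 AMPA, 3 of 5 kainate and 5 of 7 NMDA genes, against 42.5% of coding genes.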

How the data were processed

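Chromatin immunoprecipitation libraries for 4 antibodies and 1 input library were grouped by the antibody in the labels. The submitters' processing notes name Bowtie 0.12.7, MACS 1.4 and the mouse build mm9 without saying what each was used for. The authors deposited 1 region list per antibody, each region with a transcript, a symbol and a score over input, whose scale is not given in the sources used here. Lists were made within 3 kb of starts, per the file names, and hold 13142 H3K4me3, 8219 H3K27me3, 9781 H3K27ac and 7799 Pol II regions. Which transcripts were searched is not stated, so a gene without a region may not have been covered.

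Receptor genes were taken by symbol and other genes by transcript accession (97.4% to 98.0% of lines) or symbol, using a RefSeq table of GRCm38.p6 for names only. A gene took its highest score and widest region. Percentiles are over listed coding genes. Overhangs compare region edges by strand. Some genes planned for comparison are not reported here. No test was possible with 1 library per antibody. The functions were tested on simulated data. All 9 receptor genes were named; partner genes came from a list, those discussed first being mainly the highest and lowest scoring, and the nearest 3 genes by percentile were named for each receptor gene. The genes, lists and rules were chosen with earlier results of these data known, and the overhang and gap measures after seeing the regions. Alternatives used the upper 50% of each list, lists of the same length, a width minimum of 5 kb, required overlaps (1 bp or 0.5 of the narrower region), other ranks and another background. Python 3.11.15, pandas 2.3.3, numpy 2.4.6, scipy 1.17.1 and matplotlib 3.10.9 were used.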

Additional observations from a re-analysis of the deposited data

How the results depend on the processing

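When each list was limited to its upper 50% of scores, the AMPA counts stayed at 4 for H3K4me3, H3K27ac and Pol II. Kainate genes listed came to 3 for H3K4me3 and 2 for Pol II, the genes with both H3K4me3 and H3K27me3 to 1, and the partner genes to 2 for H3K27me3 and 19 for Pol II. Receptor genes with all 3 active marks went from 8 to 6. With regions of at least 5 kb, Pol II was left at 3 AMPA genes and 2 kainate genes, and the 3 active marks at 5 receptor genes. Over all symbols in at least 1 list, the background share of H3K4me3 became 78.3%, of H3K27me3 49.3%, of H3K27ac 58.6% and of Pol II 47.6%. Ranked over distinct regions, the median percentile of the receptor genes was 82.9 for H3K4me3 and 68.2 for H3K27me3, from 81.0 and 59.9. In lists of the same length, all 10 receptor counts stayed within 1.5 times. Requiring overlap by 1 bp kept the count of genes with H3K4me3 and H3K27me3 at 3, and requiring 0.5 of the narrower region lowered it to 2. Without regions of both strands, a larger downstream overhang was found at 86.0% of genes, and Grik5 leaves the comparison. No paired analysis was possible because each antibody has 1 library. Depth is unknown, and a deeper Pol II library could list other genes near the lowest score.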
